A study of Mus musculus with 11 samples.

Results

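Transcripts of glycolysis and of the cellular response to low oxygen were examined in mouse mammary tumors with and without knockdown of pyruvate carboxylase. The genes were chosen by symbol as 34 members, with 19 in glycolysis and its control enzymes and 15 in oxygen sensing and hypoxia targets. A probe set was matched for 32 of them among the 19505 gene symbols measured, with 1 probe set for each, namely 17 of 19 glycolysis members and 15 of 15 hypoxia members. Gpi1 and Eno1 were not analysed here. All 32 entered the tests, because no filter on low signal was applied.

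The tumors grew from cells of the mouse mammary carcinoma line E0771, placed in the fourth mammary gland fat pad of C57BL6J hosts, which were young adult females on 1 diet and otherwise untreated. The cells carried a lentiviral shRNA against Pcx, the gene of pyruvate carboxylase, in 3 shPC25 and 4 shPC28 tumors, or a scrambled shRNA in 4 scram tumors, and all were selected with puromycin. Each title also holds the letters LFD, which are not spelled out there. No repeat of the transduction is described and no batch is labelled, so p-values measure the spread between the tumors of 1 cell population per group. The study also made luciferase-expressing E0771 cells, and the labels do not say whether these were used. RNA came from whole tumors, so fewer cells of a type and less RNA per cell cannot be told apart.

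Glycolysis splits glucose into pyruvate, from import through GLUT1 (Slc2a1) and phosphorylation by hexokinases to pyruvate kinase. Pyruvate carboxylase turns pyruvate into oxaloacetate, and pyruvate dehydrogenase kinase (Pdk1) limits the other mitochondrial route of pyruvate. When oxygen is low, the prolyl hydroxylases Egln1 and Egln3 no longer mark the HIF alpha subunits (Hif1a, Epas1) for destruction, and HIF switches on genes through the hypoxia response element. In solid tumors the HIF targets include most glycolytic enzymes, Vegfa, Car9 and Bnip3, and since HIF1 alpha is set mainly at the protein level, its transcript does not report its activity.

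The letters ACGTG, a form of the core of that element and called the core here, were searched on both strands of RefSeq promoter windows. The windows, of the GRCm38.p6 build, ran from 250 bases before to 50 after each annotated start. The form GCGTG was not searched. Windows were found for 31 of the 34 members, and none was matched for Epas1, Ndrg1 and Bnip3l. At least 1 window held the core in 21 of 31 member genes (67.7%), with 11 of 19 in glycolysis and 10 of 12 among hypoxia genes, against 21.8% of 27025 genes in all. Some genes have several windows, and by window the shares were 54.5% of 44 for the members and 19.6% of 32851 in all. CACGTG reads the same on both strands, so its overlapping matches were counted once on each. The stretches below belong to members whose values are given tumor by tumor, and the capitals mark the core or its reverse complement CACGT. They are printed along the strand of the gene.
Ddit4 (chr10:59951913-59951997, minus strand): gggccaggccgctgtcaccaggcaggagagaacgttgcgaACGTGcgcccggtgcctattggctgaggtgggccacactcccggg
Pkm (chr9:59657112-59657196, plus strand): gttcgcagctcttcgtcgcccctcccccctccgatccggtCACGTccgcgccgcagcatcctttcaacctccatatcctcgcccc
Hif1a (chr12:73907692-73907841, plus strand): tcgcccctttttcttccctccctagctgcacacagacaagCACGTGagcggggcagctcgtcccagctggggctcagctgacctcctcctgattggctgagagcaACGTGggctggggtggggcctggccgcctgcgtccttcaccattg
P4ha1 (chr10:59323240-59323295, plus strand): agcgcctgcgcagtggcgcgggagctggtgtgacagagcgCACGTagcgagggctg
Slc2a1 (chr4:119108669-119108744, plus strand): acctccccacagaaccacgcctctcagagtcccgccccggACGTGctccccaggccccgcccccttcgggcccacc
Car9 (chr4:43506968-43507025, plus strand): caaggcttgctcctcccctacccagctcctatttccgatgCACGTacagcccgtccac
Bnip3 (chr7:138909569-138909654, minus strand): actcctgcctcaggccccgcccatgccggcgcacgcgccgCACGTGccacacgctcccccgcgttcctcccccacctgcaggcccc
Vegfa (chr17:46025330-46025413, minus strand): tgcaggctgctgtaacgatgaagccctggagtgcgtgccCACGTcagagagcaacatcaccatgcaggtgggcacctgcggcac
The stretches of Ddit4, Slc2a1, Car9 and Bnip3 lie upstream of the annotated gene. Those of P4ha1, Pkm, Hif1a and Vegfa lie upstream of the start that was used but inside the annotated span of the gene. The other Vegfa window, at the outer start, does not hold the core, so Vegfa was counted through the inner start alone. Whether these stretches inside a gene overlap exons or coding sequence was not examined, so these matches may not lie in promoter sequence. This holds for Vegfa in particular, which is counted among the 10 of 12 hypoxia genes. The windows of Car12, Pfkfb4, Eno2 and Adm do not hold these letters. A match describes the letters of the window and is not evidence of a bound site.

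The deposited values are log2 signals, and a difference of 1 is a doubling. Array medians lay between 5.89 and 6.08 over the 11 tumors. As a guide to background, 1091 olfactory receptor probe sets had a median of 2.93 and a 95th percentile of 4.3. Pcx itself read 3.19, 3.42 and 3.12 in shPC25 tumors and 3.76, 2.90, 2.32 and 3.44 in shPC28 tumors, against 3.41, 3.89, 4.48 and 4.13 in scram tumors, all but 1 of them below that percentile. The means of the 7 shPC and the 4 scram tumors differed by -0.81 (exact two-sided permutation test over 330 splits, p = 0.0212). By hairpin the differences were -0.73 for shPC25 and -0.87 for shPC28 (exact permutation p = 0.0857 for each, over 35 and 70 splits). In limma, Pcx in both shPC groups differed from scram by -0.80 (adjusted p = 0.388). Of 9 epithelial markers, Krt8 read 13.56 to 14.61 in the shPC tumors and 13.92 to 14.43 in scram tumors, while the mean of the 9 lay between 4.79 and 5.15 in shPC25 tumors, between 4.75 and 6.32 in shPC28 tumors and between 4.80 and 5.57 in scram tumors.

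With both shPC groups set against scram, 0 of 32 members passed an adjusted p of 0.05 in limma, where 0.0135% of the 22206 probe sets did. The hypoxia members had a median log2 difference of -0.28, with 11 lower and 4 higher, and the glycolysis members a median of -0.09, with 13 lower and 4 higher, against a median of 0.02 over all probe sets. The hypoxia median was -0.10 without shPC25 tumor 2, -0.11 without scram tumor 3 and -0.35 without scram tumor 4. The glycolysis median was -0.04 without scram tumor 1 or without scram tumor 3, -0.05 without shPC25 tumor 2 and -0.14 without scram tumor 2. At an unadjusted p below 0.05 there were 4 lower members (Ddit4, Pkm, Car12 and Hif1a) and 1 higher member (P4ha1), which is 15.6% of the members against 9.11% of all probe sets (4.76% lower and 4.34% higher). By list, the unadjusted share was 5.88% of glycolysis members and 26.7% of hypoxia members. With each array centred on its median, the median difference was -0.18 for hypoxia members and turned to 0.00 for glycolysis members, the split of all members was 18 lower and 14 higher in place of 24 and 8, and the median of all probe sets was 0.11.

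**Figure D1:**
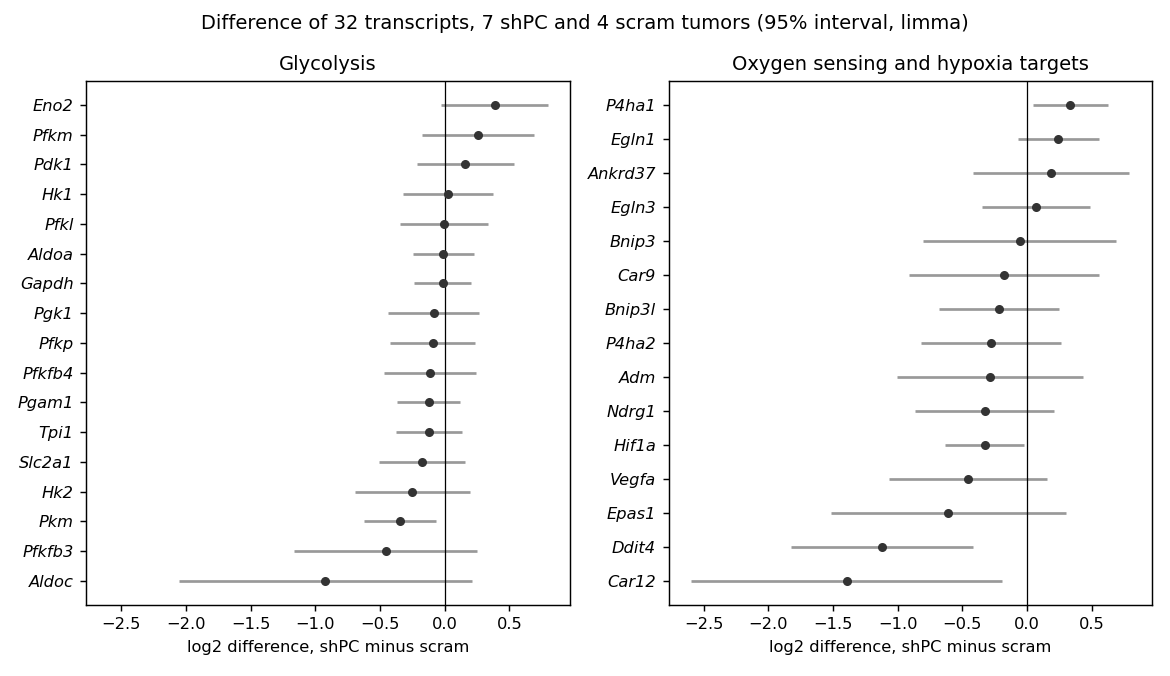
Log2 difference, mean of the shPC25 and shPC28 group means minus scram, on the horizontal axis, with a point and a 95% limma interval for each of the 32 transcripts, glycolysis on the left and oxygen sensing and hypoxia targets on the right. The intervals of Ddit4, Car12, Hif1a and Pkm lie below 0 and that of P4ha1 above 0, all before adjustment.

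Among the enzymes from glucose entry to pyruvate, the differences between groups were small for most transcripts, and the 7 shPC tumors overlapped with the scram tumors for all but Pkm. Slc2a1 encodes the glucose transporter GLUT1. Its signal was 16.90, 16.95 and 16.97 in shPC25 tumors and 17.20, 16.86, 16.97 and 16.84 in shPC28 tumors, against 17.42, 16.98, 17.39 and 16.73 in scram tumors. The groups overlapped, and the lowest and the highest tumor were both scram. The difference of both shPC groups minus scram was -0.18, with a 95% interval of -0.51 to 0.16. Without scram tumor 1 it was -0.08, and without scram tumor 4 it was -0.31. Hk1 and Hk2, the hexokinases that trap glucose in the cell, differed by 0.03 and -0.25. The phosphofructokinase subunits differed by -0.01 for Pfkl, -0.09 for Pfkp and 0.26 for Pfkm, and Pfkm was 9.01 in scram tumor 4 with 9.84 to 10.24 in the other 10 tumors. Without scram tumor 4 the difference of Pfkm was 0.00, and without scram tumor 3 it was 0.41.

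The steps from aldolase to the mutase differed little, apart from Aldoc. Aldoa, the main aldolase of most tissues, differed by -0.01 (95% interval -0.25 to 0.22), and Gapdh, which makes the first high-energy intermediate, by -0.02 (-0.24 to 0.21). Tpi1, Pgk1 and Pgam1, which carry the triose steps between aldolase and enolase, differed by -0.12, -0.09 and -0.12. The sign of the differences of Aldoa, Gapdh, Pgk1, Pfkl and Pfkp turned when arrays were centred on their medians. Aldoc, the brain form of aldolase, spread more than any other glycolysis member, with 5.29 to 7.47 in shPC25 tumors, 6.13 to 7.82 in shPC28 tumors and 5.94 to 8.23 in scram tumors. Its difference was -0.92 with a standard error of 0.52, and the groups overlapped over most of their range.

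Pkm, which encodes the muscle-type pyruvate kinases PKM1 and PKM2 of the last step, was the 1 member whose 7 shPC tumors did not overlap with the 4 scram tumors. Pkm read 16.50, 16.34 and 16.82 in shPC25 tumors and 16.61, 16.68, 16.67 and 16.59 in shPC28 tumors, against 16.85, 16.83, 17.19 and 16.90 in scram tumors. All 7 shPC tumors lay below the 4 scram tumors, although shPC25 tumor 3 and scram tumor 2 were 0.01 apart as deposited. Such a separation was found for 1 of 32 members and for 0.703% of all probe sets in this direction, and for 0 members and 0.842% of probe sets in the other. The difference was -0.35 (SE 0.13, limma adjusted p = 0.439). One probe set covers the gene, so PKM1 and PKM2 were not told apart.

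Eno2, the neuronal enolase, read 3.67, 3.35 and 3.09 in shPC25 tumors and 3.22, 3.17, 2.67 and 3.48 in shPC28 tumors, against 2.54, 2.86, 2.83 and 3.24 in scram tumors. All of these values were below the 95th percentile of the olfactory receptor probe sets. The difference of shPC25 minus scram was 0.50 (unadjusted p = 0.0494, limma adjusted p = 0.59), and that of both shPC groups minus scram was 0.38 (adjusted p = 0.585).

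The control enzymes of the pathway did not share a direction. Pdk1, which phosphorylates and inhibits pyruvate dehydrogenase, differed by 0.16 between both shPC groups and scram (SE 0.17). Pfkfb3 and Pfkfb4 make and break fructose 2,6-bisphosphate, the activator of phosphofructokinase, and differed by -0.46 (SE 0.32) and -0.11 (SE 0.16). Pfkfb3 was at -0.13 without scram tumor 3 and at -0.69 without scram tumor 4. Pfkfb4 was at -0.04 without scram tumor 1 and at -0.21 without scram tumor 2. Pfkfb4 read 9.07, 9.02 and 9.39 in shPC25 tumors and 8.60, 8.32, 8.97 and 8.64 in shPC28 tumors, against 9.24, 8.72, 9.22 and 8.86 in scram tumors. The shPC28 tumors all lay below the shPC25 tumors, and the scram tumors overlapped with both. The difference of shPC28 minus shPC25 was -0.53 (unadjusted p = 0.0208, limma adjusted p = 0.993), and Pfkfb4 was the 1 lower member past the unadjusted threshold in that comparison, where 2.46% of all probe sets were lower. With 0 members and 2.14% of probe sets higher, the share was 3.12% of members against 4.61% of all probe sets. Pfkfb4 and Pfkm were the 2 members without overlap between the hairpins, both lower in shPC28 tumors, as were 2.68% of all probe sets, with 0 members and 2.31% higher.

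**Figure D2:**
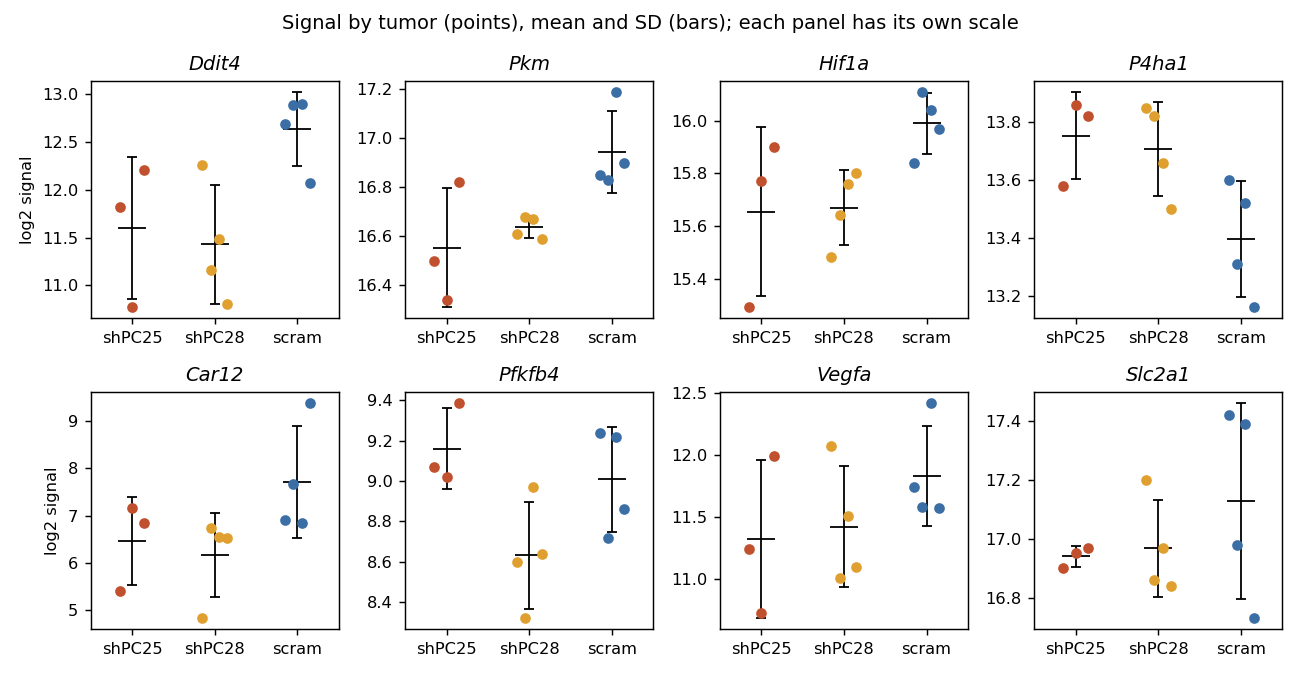
Log2 signal on the vertical axis of 8 members in each tumor, with shPC25, shPC28 and scram from left to right, a point per tumor, and the group mean with its SD as bars, each panel on its own scale. Ddit4, Pkm and Hif1a were lower in most shPC tumors than in scram tumors, P4ha1 was higher, and Pfkfb4 separated the shPC28 tumors from the shPC25 tumors.

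The oxygen sensors and the HIF subunits did not share a direction. Hif1a, the oxygen-regulated subunit of HIF1, read 15.29, 15.77 and 15.90 in shPC25 tumors and 15.48, 15.64, 15.76 and 15.80 in shPC28 tumors, against 15.84, 16.11, 16.04 and 15.97 in scram tumors. Of the 7 shPC tumors, 6 lay below every scram tumor, and shPC25 tumor 3 overlapped. The difference was -0.33 (SE 0.14, limma adjusted p = 0.523). Epas1, which encodes HIF2 alpha and is rich in endothelium, differed by -0.61 with a wide interval of -1.52 to 0.30. Without scram tumor 1 it differed by -0.23, and without shPC25 tumor 2 by -0.89. Egln1, the main oxygen sensor among the prolyl hydroxylases, differed by 0.24 (-0.07 to 0.55), and Egln3, itself a HIF target, by 0.07 (-0.35 to 0.48).

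Ddit4 had the smallest p of all members. It encodes REDD1, an inhibitor of mTORC1 that HIF, glucocorticoids and cell stress induce. Ddit4 read 11.82, 10.77 and 12.21 in shPC25 tumors and 12.26, 11.16, 11.49 and 10.81 in shPC28 tumors, against 12.69, 12.89, 12.90 and 12.07 in scram tumors. Scram tumor 4, the lowest of its group, lay below shPC25 tumor 3 and shPC28 tumor 1, and the other 5 shPC tumors lay below every scram tumor. The difference was -1.12 (SE 0.32, 95% interval -1.83 to -0.42, unadjusted p = 0.00487, limma adjusted p = 0.294). Against the same scram tumors the difference was -1.04 for shPC25, with -0.62 without shPC25 tumor 2 and -1.34 without shPC25 tumor 3. For shPC28 it was -1.21, and shPC28 minus shPC25 was -0.17 (95% interval -1.03 to 0.69).

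The membrane carbonic anhydrases, which turn carbon dioxide into bicarbonate and protons at the cell surface, differed in their patterns. Car12 read 5.40, 7.15 and 6.85 in shPC25 tumors and 4.82, 6.73, 6.55 and 6.53 in shPC28 tumors, against 6.91, 7.67, 6.85 and 9.40 in scram tumors. The shPC28 tumors lay below all scram tumors, and the shPC25 tumors overlapped with them. The difference of both shPC groups minus scram was -1.40 (SE 0.55, limma adjusted p = 0.481). Without scram tumor 4 it was -0.83, and without scram tumor 3 it was -1.68. Car9 read 5.74, 4.65 and 6.11 in shPC25 tumors and 5.31, 5.47, 5.58 and 4.89 in shPC28 tumors, against 5.75, 5.51, 6.40 and 4.68 in scram tumors. Its groups overlapped, and the difference was -0.18 (95% interval -0.91 to 0.55).

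The secreted factors spread widely within each group. Vegfa, the angiogenic growth factor, read 11.24, 10.73 and 11.99 in shPC25 tumors and 12.07, 11.01, 11.51 and 11.10 in shPC28 tumors, against 11.74, 11.58, 12.42 and 11.57 in scram tumors. Of the 7 shPC tumors, 5 lay below every scram tumor and the other 2 within the scram range, with a difference of -0.46 (95% interval -1.07 to 0.16). Adm, the vasodilator peptide adrenomedullin, differed by -0.29 (-1.01 to 0.43). Without scram tumor 3, the highest of its group in both, the differences were -0.26 for Vegfa and -0.06 for Adm. In the other direction, Vegfa was at -0.62 without shPC25 tumor 3 and Adm at -0.48 without scram tumor 4.

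Collagen prolyl hydroxylase subunits, which HIF induces and which stabilise collagen, had differences of opposite sign. P4ha1 read 13.58, 13.86 and 13.82 in shPC25 tumors and 13.85, 13.82, 13.66 and 13.50 in shPC28 tumors, against 13.60, 13.31, 13.52 and 13.16 in scram tumors. It was above every scram tumor in 5 of 7 shPC tumors, with a difference of 0.33 (SE 0.13, limma adjusted p = 0.485). P4ha2 differed by -0.28 (SE 0.25). The remaining targets had intervals that spanned 0, with -0.06 for the mitophagy receptor Bnip3, whose sign turned with median centring, -0.22 for its relative Bnip3l, -0.33 for the stress gene Ndrg1 and 0.19 for the ankyrin repeat gene Ankrd37.

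By hairpin, 0 members passed the adjusted threshold in limma, where 0% of all probe sets did for either hairpin. In shPC25 tumors, Ddit4 and Pkm were lower and P4ha1 and Eno2 higher at an unadjusted p below 0.05, which is 12.5% of members against 8.45% of all probe sets (4.16% lower and 4.29% higher). Pkm did not overlap with scram there, 1 member where 3.4% of all probe sets were lower, and 0 members where 4.16% were higher. In shPC28 tumors, Ddit4 and Car12 were lower and 0 members higher at that threshold, which is 6.25% of members against 7.41% of all probe sets (3.72% lower and 3.69% higher). Pkm, Hif1a and Car12 did not overlap with scram in shPC28 tumors, 3 members where 2.12% of all probe sets were lower, and 0 members where 2.41% were higher. The median differences of shPC25 and of shPC28 from the shared scram tumors were -0.33 and -0.27 for hypoxia members and -0.08 and -0.04 for glycolysis members, and the glycolysis medians turned to 0.05 and 0.03 with median centring. That centring put the median of all probe sets at 0.14 for shPC25 and 0.08 for shPC28, against 0.02 and 0.01 as deposited. In shPC28 minus shPC25, the medians were -0.01 for both lists. The 9 epithelial markers were higher in shPC28 than in shPC25 tumors in 9 of 9 cases (median 0.597), with 1 at an unadjusted p below 0.05 (11.1%, against 2.14% of all probe sets higher). Against scram, 8 of 9 were higher in shPC28 tumors (median 0.605, with 3 at that threshold, 33.3%) and 6 of 9 lower in shPC25 tumors (median -0.20, with 0 at that threshold). The 3 in shPC28 tumors were Krt7, Cldn3 and Cldn4. Cldn3 read at most 3.91 and Cldn7 at most 2.90 in any tumor, below the olfactory receptor percentile of 4.3. Krt7 read 4.19 to 5.79 in shPC28 and 3.04 to 5.24 in scram tumors, and Cldn4 3.93 to 6.32 and 3.50 to 4.19. Signal near that background limits what these markers can show. None of the 9 passed the adjusted threshold in limma, and their part in the values by hairpin was not tested.

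Other genes of both pathways were read from lists that do not hold the members. Of 24 further glycolysis and lactate genes, 19 were measured, and 0 of 19 passed an unadjusted p of 0.05 in both shPC groups against scram, with a median of -0.05. The smallest p values belonged to Adpgk, the ADP-dependent glucokinase, at -0.42, and Slc16a3, the lactate exporter MCT4, at -0.19. Tigar, a fructose bisphosphatase that p53 induces, was at -0.20 and Pgam2, the muscle mutase, at 0.22. Ldha, which makes lactate from pyruvate, read 16.76 to 17.02 in the 7 shPC tumors and 16.90 to 17.04 in scram tumors, and was picked after its values were seen.

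Of 28 further hypoxia genes, 26 were measured, and 3 were lower and 0 higher at an unadjusted p below 0.05 (11.5%, against 9.11% of all probe sets, of which 4.76% were lower), with a median of -0.09. Lox, the collagen cross-linking enzyme, differed by -2.79 (SE 0.91, limma adjusted p = 0.368). Tfrc, the transferrin receptor for iron uptake, differed by -0.92 (SE 0.31, adjusted p = 0.371), and its 7 shPC tumors at 10.64 to 12.12 lay below the scram tumors at 12.29 to 13.37. Such a separation was found for 1 of the 26 genes and for 0.703% of all probe sets in this direction. Bhlhe40, a transcriptional repressor, differed by -0.42 (SE 0.16, adjusted p = 0.463), and the plasma lipase inhibitor Angptl4 by -0.76 (SE 0.39, adjusted p = 0.606).

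With the groups pooled, the members varied together from tumor to tumor around their group means. Within groups, that is on the deviations of each tumor from its group mean, the median Pearson correlation over 496 pairs of members was 0.51. It was 0.48 among glycolysis members, 0.56 among hypoxia members and 0.53 between a glycolysis and a hypoxia member, against 0.00 over all symbols. These are descriptions over 11 tumors that share arrays and tissue makeup, and members are not independent of each other. The symbols in the comparison were not matched for signal, and most members read well above the array medians of 5.89 to 6.08.

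**Figure D3:**
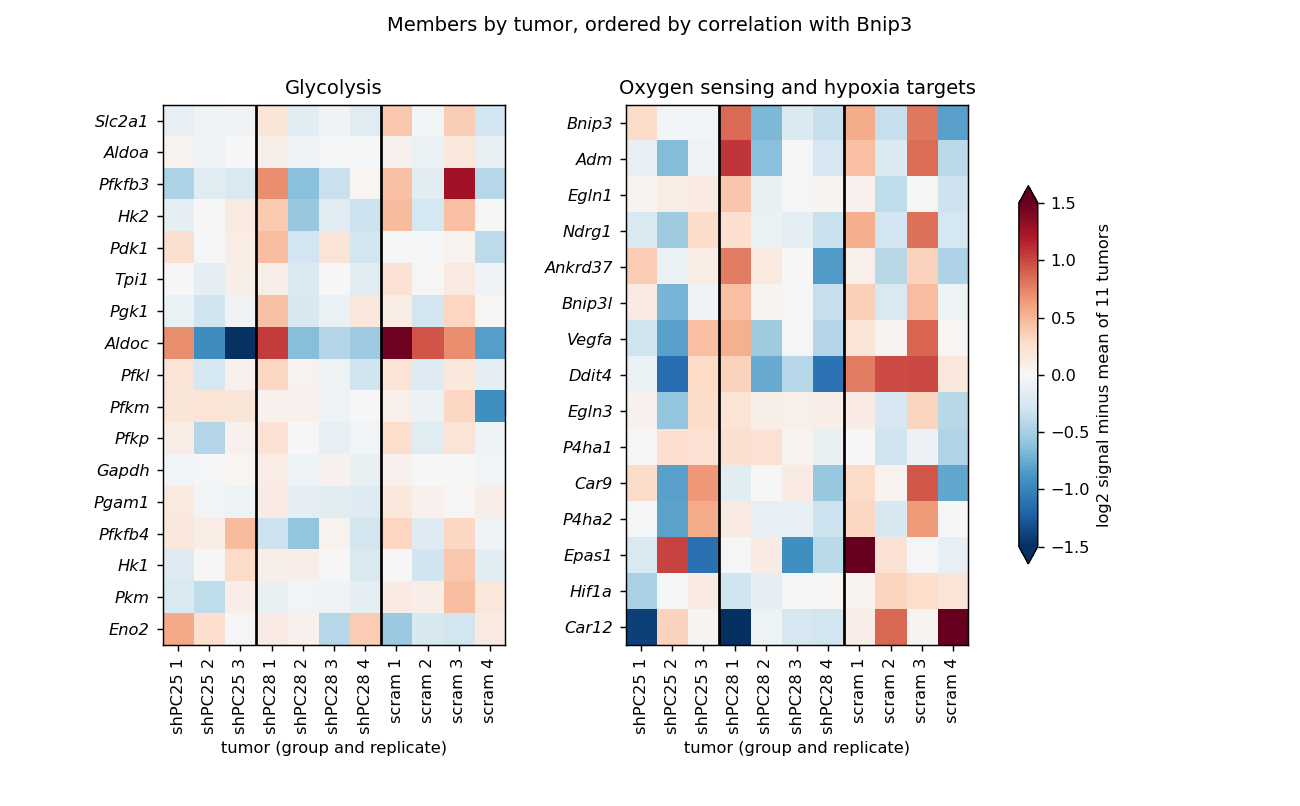
Log2 signal of each member (rows) in each tumor (columns, shPC25 then shPC28 then scram) minus its mean over the 11 tumors, with red above and blue below that mean and with rows ordered by their within-group correlation with Bnip3, glycolysis on the left and hypoxia genes on the right. Many rows are red together in shPC28 tumor 1 and in scram tumors 1 and 3, and Car12 at the foot runs the other way.

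Bnip3, a HIF target with the core in its promoter window, was set against 10 members that are known HIF targets. The hypoxia targets Bnip3l, P4ha1, P4ha2 and Car12 and several glycolytic enzymes were left out, so the 10 are a chosen subset. Bnip3 read 12.97, 12.65 and 12.65 in shPC25 tumors and 13.54, 12.02, 12.47 and 12.35 in shPC28 tumors, against 13.25, 12.34, 13.48 and 11.87 in scram tumors. It was highest in shPC28 tumor 1 and scram tumors 1 and 3, and the shPC tumors lay inside the scram range apart from shPC28 tumor 1. Adm moved most closely with it, at 14.89, 14.37 and 14.94 in shPC25 tumors and 16.09, 14.39, 15.00 and 14.76 in shPC28 tumors, against 15.47, 14.80, 15.86 and 14.61 in scram tumors.

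Of the 10 relations, 8 passed an adjusted p of 0.05 by Pearson's r in a two-sided permutation test of the deviations within groups. Adm had r = 0.945 (permutation p = 0.00118, adjusted p = 0.0059, Spearman's rho = 0.938, permutation p = 0.00253), Slc2a1 had r = 0.921 (permutation p = 0.0119, adjusted p = 0.0397, rho = 0.879, permutation p = 0.021) and Pdk1 had r = 0.809 (permutation p = 0.0011, adjusted p = 0.0059, rho = 0.735, permutation p = 0.0011). Without shPC28 tumor 1 and scram tumor 3, the farthest from the median of Bnip3, these were 0.871, 0.906 and 0.667 over 9 tumors. The r values pool the groups, and Slc2a1 did not follow Bnip3 inside shPC25. There Bnip3 deviated by 0.213, -0.107 and -0.107, and Slc2a1 by -0.04, 0.01 and 0.03. Pdk1 deviated by 0.133, -0.137 and 0.003 in the same tumors, and Adm by 0.157, -0.363 and 0.207. By rho, Adm, Pdk1 and Vegfa passed after adjustment (adjusted p = 0.0126, 0.011 and 0.0235).

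The other 5 relations past the threshold by r were weaker and near it, all at an adjusted permutation p of 0.0475. Pgk1 had r = 0.759 (permutation p = 0.032, rho = 0.702, p = 0.0522) and Ndrg1 had r = 0.753 (permutation p = 0.0347, rho = 0.688, p = 0.0845). Vegfa had r = 0.648 (permutation p = 0.0202, rho = 0.61, p = 0.00706), Ddit4 had r = 0.61 (permutation p = 0.038, rho = 0.551, p = 0.0755) and Egln3 had r = 0.601 (permutation p = 0.0271, rho = 0.661, p = 0.0287). Without the same pair of tumors r was 0.462 for Pgk1, 0.273 for Vegfa and 0.375 for Ddit4, so these relations rest on those tumors, and it was 0.604 for Ndrg1 and 0.53 for Egln3. Ankrd37 (r = 0.736, permutation p = 0.0484, adjusted p = 0.0537, rho = 0.788, p = 0.0395) and Car9 (r = 0.517, permutation p = 0.12, adjusted p = 0.12, rho = 0.51, p = 0.145) did not pass, and r without the pair was 0.449 and 0.468. Without shPC28 tumor 1 alone, 0 of 10 passed, and without each other tumor in turn 2 to 8 did.

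Over all members, 14 of 31 had a within-group r with Bnip3 of at least 0.7 (45.2%), against 3.28% of the 19504 other symbols, not matched for signal. Aldoa (0.919), Egln1 (0.903), Pfkfb3 (0.895) and Hk2 (0.845), which were not among the 10, stood next to Adm and Slc2a1 as a description. The 4 members of lowest r were Pkm at 0.196, Eno2 at -0.252, Hif1a at -0.401 and Car12 at -0.897, and 52 of the 19504 symbols were at or below the value of Car12. Car12 was lowest, at 4.82 and 5.40, in shPC28 tumor 1 and shPC25 tumor 1, each the highest of its group in Bnip3, and highest at 9.40 in scram tumor 4, the tumor lowest in Bnip3. These members were picked for their place in the order after the values were seen.

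**Figure D4:**
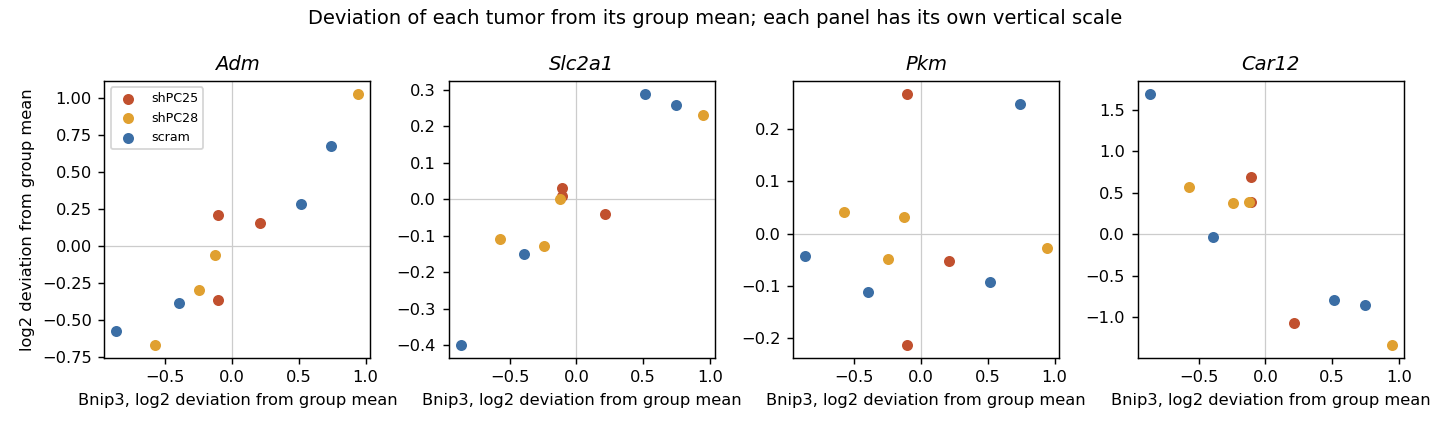
Deviation of each tumor from its group mean in Bnip3 (horizontal axis, log2) and in Adm, Slc2a1, Pkm and Car12 (vertical axes, log2, each panel on its own scale), with a point per tumor coloured by group. Adm and Slc2a1 go up with Bnip3 (r = 0.945 and 0.921), Pkm shows little relation (r = 0.196) and Car12 goes down (r = -0.897).

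Markers of other cell types also varied between groups and tumors. The mean signal of 11 fibroblast markers was 7.88 to 9.68 in the 7 shPC tumors and 9.52 to 11.30 in scram tumors, that of 11 neutrophil markers 6.60 to 8.20 and 7.69 to 9.82, and that of 11 macrophage and monocyte markers 11.37 to 12.23 and 11.85 to 12.44. In the mean of both shPC groups, 11 of 11, 10 of 11 and 10 of 11 of these markers were lower than in scram. The medians were -1.93, -1.54 and -0.62. At an unadjusted p below 0.05 there were 9, 8 and 8 lower markers (81.8%, 72.7% and 72.7%) and 0 higher ones. Over all probe sets 4.76% were lower, and 0 markers passed the adjusted threshold. For shPC25 alone, 10 of 11 fibroblast markers were lower, and Pdgfrb was higher at 0.44. Within groups, Bnip3 correlated at 0.58 with the neutrophil mean, 0.52 with the fibroblast mean, 0.45 with the endothelial mean, -0.58 with the epithelial mean, 0.16 with the macrophage mean and 0.09 with the array median. Only 2 of 6 erythroid markers were measured, with r = 0.83 for their mean, and Alas2 was 10.14 in shPC28 tumor 1 against 6.45 to 7.39 in the other shPC tumors and 5.26 to 8.55 in scram tumors. The B cell and lymph node mean was 8.53 in shPC28 tumor 4 and 3.63 to 4.24 in the other 10 tumors. The part of these cell types in the differences and in the shared variation was not tested.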

How the data were processed

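Total RNA of 11 tumors was hybridised by the authors to mouse Clariom S arrays. The deposited values are log2 signals of 22206 probe sets, normalized between arrays by the authors in the vendor's software. For the summarisation algorithm, the background correction and the genome build, the sources used here give nothing. Symbols came from the platform annotation (19572 probe sets with 1 symbol, 2634 with none). No 2 arrays held identical values, and the number of arrays limits the precision.

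No filter or further scaling was applied to them. Limma 3.58.1 (R 4.3.3, lmFit and eBayes) was fitted to all tumors with 1 mean per group, and 4 contrasts were tested two-sided with Benjamini-Hochberg adjustment over all probe sets and a threshold of 0.05. The shPC value is the mean of both shPC group means. Correlations used deviations from group means, with 100000 permutations within groups in numpy 2.4.6 under Python 3.11.15. The limma fit was run on simulated data with known changes. The share of those changes that it recovered is not given here, so a member that did not pass is not shown to be unchanged.

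The members and lists were chosen with earlier results of these data known. Every measured member is named, with values per tumor for those at an unadjusted p below 0.05 in any contrast and for Slc2a1, Hif1a, Vegfa and Car9; Bnip3 and Adm were added with the correlations. Up to 4 other genes of smallest p were named per pathway list. The alternatives changed the scaling (median centring or quantile normalization), the filter (dim probe sets left out), the model (array weights, a trended robust prior, only the compared groups, a replicate block, the methods' t-test) and the tumors (each left out in turn). Added after seeing the data were Bnip3 as a covariate and the same checks of the correlations. The mean over probe sets equals the main value, since each member has 1.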

Additional observations from a re-analysis of the deposited data

Results flagged for a closer look

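ShPC28 tumor 1 stood apart from the other 3 shPC28 tumors in 3 members. Aldoc read 7.82 there and 6.13 to 6.33 in the other 3, Pgam1 15.49 against 15.18 to 15.23, and Car12 4.82 against 6.53 to 6.73. By Dixon's test these were 3 of 64 tests over groups of 4 tumors, and chance gives about 3.2. The same tumor was the highest of all 11 in Bnip3 (13.54) and Adm (16.09).

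Pfkfb4 lay above the scram mean in every shPC25 tumor and below it in every shPC28 tumor. The difference of shPC28 minus shPC25 was -0.53, and it did not pass after adjustment in limma (adjusted p = 0.993).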

How the results depend on the processing

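No member passed the adjusted threshold in any of the 80 alternative results. These are the 4 contrasts under 9 settings with all tumors and 11 that left out a tumor, so they are not independent. Eno2 and Car9 were not tested where dim probe sets were left out. The smallest adjusted p was 0.0832, for Car12 with Bnip3 as a covariate in limma. At an unadjusted p below 0.05, the methods' t-test gave 5 members in both shPC groups, 0 in shPC25 and 3 in shPC28 against scram, where limma gave 5, 4 and 2. The count of all probe sets past the threshold for the shPC groups together against scram was 3. It was 0 with quantile normalization, the methods' t-test or the replicate block, 8 with array weights and 22 with a trended robust prior. With Bnip3 as a covariate it was 14, and leaving out a tumor it was 0 to 8. For shPC25 against scram (0) it was 1 without dim probe sets or with array weights, 2 with the trended prior, 4 with the covariate and 0 to 6 leaving out a tumor, and for shPC28 (0) it was 9 with the trended prior, 1 with the covariate and 0 to 1 leaving out a tumor. Same-numbered tumors correlated at -0.18 to 0.14 in their deviations, over 0.1 in 2 of 10 pairs, so the numbers were not taken as pairs. Leaving out a tumor, the hypoxia median ranged from -0.348 to -0.1 for the shPC groups together (the highest without shPC25 tumor 2). The glycolysis median ranged from -0.145 to -0.037 for the same groups (without scram tumors 2 and 1). The hypoxia median ranged from -0.41 to -0.09 for shPC25 (the highest without shPC25 tumor 2) and from -0.365 to -0.001 for shPC28 (without scram tumor 3). Of the 10 relations with Bnip3, 8 passed as deposited, 3 with quantile normalization, 4 with median centring and 0 to 8 leaving out a tumor. Signs turned for Aldoa at 0.002 with quantile normalization, for Pfkl (0.086), Pfkp (0.003), Aldoa (0.083), Gapdh (0.078), Pgk1 (0.009) and Bnip3 (0.036) with median centring, for Hk1 (-0.004) with the replicate block and for Pfkl (0.007) with the covariate, which is 9 of 285 values. Leaving out a tumor gave -0.05 to 0.043 for Aldoa, -0.348 to 0.189 for Bnip3, -0.48 to 0.093 for Car9, -0.052 to 0.198 for Egln3, -0.035 to 0.003 for Gapdh, -0.069 to 0.165 for Hk1, -0.075 to 0.058 for Pfkl and -0.193 to 0.008 for Pgk1. In all, the difference of 25 of 32 members moved by over 1.5 times without some tumor, and that of 7 did not. Hk2 came to -0.148 without scram tumor 1, Aldoc to -1.388 without scram tumor 4, Ndrg1 to -0.121 without scram tumor 3, Pdk1 to 0.06 without scram tumor 4, P4ha2 to -0.1 and Bnip3l to -0.095 without shPC25 tumor 2, and Ankrd37 to 0.062 without shPC28 tumor 1. At the other end, Hk2 was at -0.394, Ndrg1 at -0.491 and Bnip3l at -0.337 without scram tumor 2. Pdk1 was at 0.21 and Ankrd37 at 0.34 without scram tumor 3. Aldoc was at -0.624 without scram tumor 1 and P4ha2 at -0.44 without shPC25 tumor 3. With array weights Epas1 was at -0.904. The cause was not tested. Eno2 lay below the 95th percentile of the olfactory receptor probe sets, so its signal limits what its values can show.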
